A study of Mus musculus with 16 samples.

Results

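The thrombospondins are the 5 genes *Thbs1*, *Thbs2*, *Thbs3*, *Thbs4*, and *Comp* (cartilage oligomeric matrix protein). They were taken by gene symbol from a single-cell table of 29629 genes, in which 4 of the 5 were analysed, and from a bulk table of 47729 genes, in which all 5 were analysed. Expression of *Comp* in the single cells was not analysed here.

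Thrombospondins are large calcium-binding glycoproteins that are secreted into the extracellular matrix. *Thbs1* and *Thbs2* encode proteins that assemble as trimers, bind the receptors Cd36 and Cd47, and restrain blood vessel growth, and Thbs1 can also activate latent TGF-β. *Thbs3*, *Thbs4*, and *Comp* encode proteins that assemble as pentamers. Comp and Thbs4 bind collagens and are abundant in tendon, and Comp is abundant in cartilage.

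The cells came from mouse induced pluripotent stem cells (iPSCs) that carry the *ScxGFP* transgene, in which green fluorescent protein is driven by the regulatory region of *Scx*, the gene of the tendon transcription factor scleraxis. Mesodermal cells made from 1 clone of these iPSCs were sorted before treatment (T0) or after 3, 6, or 9 days of culture with 10 ng/ml TGF-β2, which gave the groups T3, T6, and T9. Live single cells were sorted with doublets gated out and no gate on GFP stated, into 3 plates of 384 wells for each group. The labels do not say that the plates came from separate cultures. No group was cultured untreated for 3, 6, or 9 days, so TGF-β2 and days in culture cannot be told apart. The T0 cells were dissociated with trypsin, and the later cells with collagenase and then trypsin, which also goes with the groups. The bulk samples were Achilles tendons of mice aged 2 weeks, 2 wild-type (Scx_Wt) and 2 littermates with a homozygous *Scx* knockout (Scx_KO). The part of the gene removed is not given in the sources used here.

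Of 4608 wells, 4594 held at least 200 detected genes and were used as cells. They held between 1921125 and 4657093 unique molecular identifiers (UMIs, each marking 1 captured mRNA molecule) per plate, and the median per cell ranged from 4575 to 11492 among the plates. The bulk samples held between 11188270 and 12398560 reads on genes. All 12 plates used the same 384 well barcodes. In the authors' mapping summary, plates differed in the share of reads without a feature. A cut at 9% put 7 plates above it (all of T0, and T3-2, T6-1, T6-3, and T9-3) and 5 below. This library split was chosen here and used in alternative fits, and no label names a batch. All T0 plates lie on 1 side of it. T9-3 was the highest of the T9 plates for each of the 4 thrombospondins measured, so results at T9 are also given without it where this matters.

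*Thbs1* lies on chromosome 2 (GRCm38 118111876-118127133, plus strand) and *Thbs2* on chromosome 17 (14665500-14694235, minus strand). *Thbs3* lies on chromosome 3 (89215180-89226837, plus strand), *Thbs4* on chromosome 13 (92751590-92794818, minus strand), and *Comp* on chromosome 8 (70373558-70382066, plus strand). All 5 are protein-coding, with between 20 and 22 separate exon blocks. *Thbs3* lies within the span of *Mtx1*, a gene on the opposite strand with which it shares 318 exonic bases, and *Thbs1* shares 208 exonic bases with the opposite-strand noncoding gene *Gm29233*. Reads in these shared bases can be told apart only by strand, and the strand setting of the counting is not given in the sources used here.

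The promoter windows of *Thbs2* and *Thbs4*, the members with the largest change over the time course, are shown beside that of *Thbs3*, the member with the smallest. RefSeq sequences were matched for 3 of the 5 genes. Each window holds the 250 bases before an annotated start on GRCm38.p6, read 5′ to 3′ on the strand of the gene. Capitals mark each CANNTG, the E-box motif to which basic helix-loop-helix factors such as Scx can bind. The *Thbs2* window begins at 14694263 and does not adjoin the gene start given above (14694235), so its positions count from the window edge.
Thbs2 promoter, chr17:14694263-14694512, minus strand: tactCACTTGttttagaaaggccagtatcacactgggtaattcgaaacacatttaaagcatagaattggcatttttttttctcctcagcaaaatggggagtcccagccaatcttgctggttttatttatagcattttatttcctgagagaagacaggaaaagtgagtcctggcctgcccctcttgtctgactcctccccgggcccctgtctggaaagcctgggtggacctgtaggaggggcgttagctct
Thbs4 promoter, chr13:92794819-92795068, minus strand: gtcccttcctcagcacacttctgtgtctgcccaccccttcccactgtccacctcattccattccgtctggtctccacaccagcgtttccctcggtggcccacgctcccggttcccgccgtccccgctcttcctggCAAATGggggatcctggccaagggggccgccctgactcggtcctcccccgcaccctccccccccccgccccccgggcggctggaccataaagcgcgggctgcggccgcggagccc
Thbs3 promoter, chr3:89214930-89215179, plus strand: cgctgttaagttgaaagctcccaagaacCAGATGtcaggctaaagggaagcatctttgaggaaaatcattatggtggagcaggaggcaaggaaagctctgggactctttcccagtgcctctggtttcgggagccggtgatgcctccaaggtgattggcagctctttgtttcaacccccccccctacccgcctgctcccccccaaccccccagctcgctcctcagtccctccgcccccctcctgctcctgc
Each window held 1 E-box, *Thbs2* at 246, *Thbs4* at 115, and *Thbs3* at 222 bases counted back from the 3′ edge of the window. Among 32841 such windows of all genes, 66.2% held the motif, so its presence is common. The motif reads the same on both strands. The letters CAGAC or their reverse complement, the core to which Smad proteins of the TGF-β pathway can bind, occurred 2 times each in the windows of *Thbs2* and *Thbs4* and in 42.2% of all windows, and these letters are not in the *Thbs3* window. The window of *Thbs3* lies in an intron of *Mtx1*.

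*Thbs2* rose at every step of the time course. Thbs2 takes part in collagen fibril assembly in connective tissue. At T0 its level was 1.29, 1.39, and 0.807 UMIs per 1000000 UMIs of the plate (CPM) in the 3 plates, from 15 UMIs in all. The level was 54.7, 78.5, and 90.2 CPM at T3, then 240, 215, and 245 CPM at T6, and 579, 470, and 910 CPM at T9. No plate overlapped with a plate of another time point. The means were 1.16 ± 0.311 (SD, n = 3), 74.5 ± 18.1, 233 ± 15.9, and 653 ± 229 CPM. In edgeR the log2 fold change was 6.17 ± 0.30 (SE) for T3 against T0 (adjusted p = 9.93e-09), 1.67 ± 0.21 for T6 against T3 (adjusted p = 0.000684), and 1.68 ± 0.20 for T9 against T6 (adjusted p = 0.00167). Over the whole course the pooled CPM ratio of T9 to T0 was 546, with an exact 95% counting interval from 331 to 977.

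*Thbs4* rose over the first 6 days. Thbs4 is a matrix protein of tendon and muscle that is prominent where muscle joins tendon. The plates of T0 held 2, 1, and 0 *Thbs4* UMIs, and the plate with 0 allowed up to 0.807 CPM at a limit of 3 counts. The level was 4.69, 12.2, and 12.2 CPM at T3, 107, 59.5, and 48.8 CPM at T6, and 92.9, 75.5, and 183 CPM at T9. T0, T3, and T6 did not overlap, whereas the ranges of T6 and T9 did. The log2 fold change was 5.38 ± 0.66 (SE) for T3 against T0 (adjusted p = 3.31e-05) and 2.87 ± 0.36 for T6 against T3 (adjusted p = 0.000684). The difference of 0.90 ± 0.30 between T9 and T6 did not pass (adjusted p = 0.162). It passed with the library split as a covariate (0.98, adjusted p = 0.0247), in the plates with more reads without a feature (1.32, adjusted p = 0.0365), and with no filter on low counts (0.88, adjusted p = 0.0106), and was 0.63 in the plates with fewer (adjusted p = 0.373). The pooled CPM ratio of T9 to T0 was 486, with a counting interval from 166 to 2360 that is wide because T0 held 3 UMIs. The size of the fitted change also moved with T0, and with every cell thinned to 3000 UMIs it was 3.83 for T3 against T0 and 7.58 for T9 against T0, in place of 5.38 and 9.15. Without T0-1 these were 6.09 and 9.85, and the calls held.

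*Thbs1* was the thrombospondin with the most UMIs before treatment and also rose. Its level was 33.9, 18.1, and 35.0 CPM at T0, 66.6, 113, and 117 CPM at T3, 348, 190, and 280 CPM at T6, and 420, 356, and 824 CPM at T9. Neighbouring time points did not overlap in any plate. The log2 fold change was 2.00 ± 0.29 (SE) for T3 against T0 (adjusted p = 0.000128) and 1.46 ± 0.27 for T6 against T3 (adjusted p = 0.00752). For T9 against T6 it was 1.17 ± 0.27 (adjusted p = 0.0444), close to the threshold, and the call was lost when T6-1 (adjusted p = 0.103), T6-2 (0.0507), T6-3 (0.173), T9-1 (0.138), or T9-2 (0.0558) was left out. It was also lost in a fit to the 6 plates alone (0.124) and with a minimum of 1000 genes per cell (0.0505). On either side of the library split the T9 to T6 change was 1.48 in the plates with more reads without a feature and 1.16 in those with fewer. With scaling by library totals alone, the changes from T3 to T6 (1.46, adjusted p = 0.0629) and from T6 to T9 (0.97, adjusted p = 0.234) did not pass.

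*Thbs3* stayed low at all time points. Its level was 8.16, 5.79, and 5.65 CPM at T0, 11.5, 23.2, and 8.36 CPM at T3, 14.8, 7.0, and 15.5 CPM at T6, and 4.35, 4.18, and 13.6 CPM at T9. The highest plate at T3 and both higher plates at T6 were among those with more reads without a feature, as was the highest at T9. The T3 to T0 change of 1.31 ± 0.39 (SE) on the log2 scale passed (adjusted p = 0.0194) but did not pass without T3-2 (0.95, adjusted p = 0.105), T0-2 (1.25, adjusted p = 0.0686), or T0-3 (1.25, adjusted p = 0.0662), with every cell thinned to 3000 UMIs (0.92, adjusted p = 0.112), or with scaling by library totals (1.13, adjusted p = 0.119). The later steps gave -0.17 ± 0.38 (adjusted p = 0.859) and -0.57 ± 0.39 (adjusted p = 0.492). T9 against T0 gave 0.57 ± 0.40 (adjusted p = 0.257), from 1.21 in the plates with more reads without a feature (adjusted p = 0.00792) to 0.04 without T9-3 (adjusted p = 0.952), so that a single plate set most of its size.

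Counted over the family, 4 of the 4 thrombospondins tested rose from T0 to T3, when 17.0% of the 13372 genes tested rose. From T3 to T6, 3 of 4 rose, against 2.61% of all genes. From T6 to T9, 2 of 4 rose, against 0.935% of all genes. Between T0 and T9, 3 of 4 rose, against 23.6% of all genes, and their log2 fold changes were 9.52 ± 0.32 (SE) for *Thbs2*, 9.15 ± 0.54 for *Thbs4*, and 4.63 ± 0.31 for *Thbs1*. These comparisons share plates and are not independent. With scaling by library totals, the median of all genes between T0 and T9 was -0.49 on the log2 scale and these 3 changes were 9.07, 8.75, and 4.20. The edgeR SE is derived from the test and may be too small where T0 held few UMIs. In DESeq2 the SE of the T9 to T0 change was 0.42 for *Thbs2*, 0.90 for *Thbs4*, and 0.28 for *Thbs1*.

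**Figure D1:**
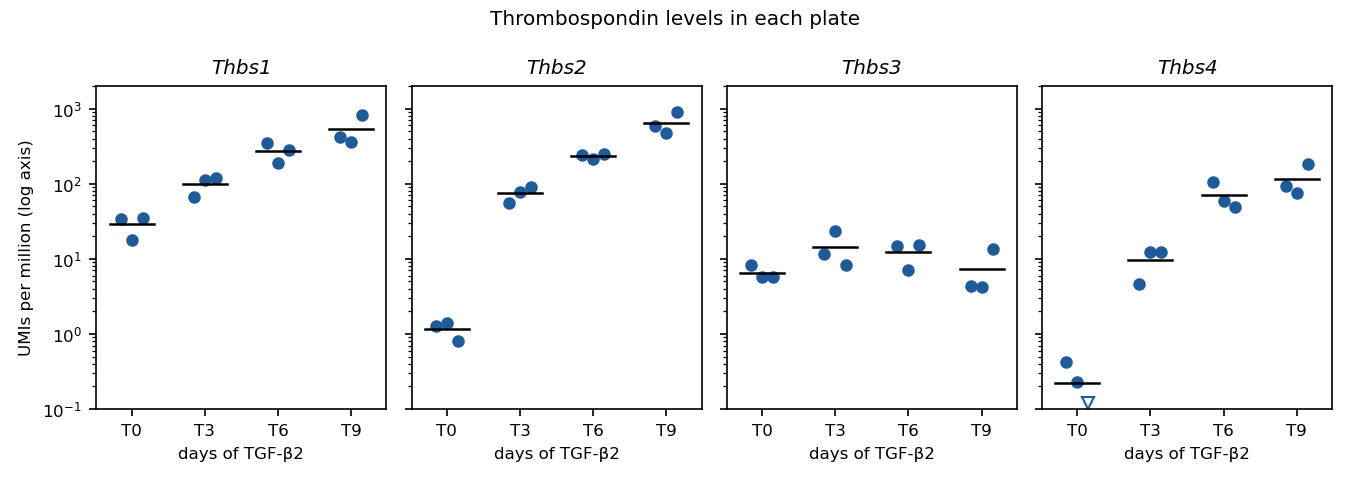
Level of each thrombospondin in each plate (points, CPM on a log axis) and the mean of the 3 plates (lines) at T0, T3, T6, and T9, with an open triangle for the plate with 0 UMIs. *Thbs1*, *Thbs2*, and *Thbs4* are higher at T3 than in any T0 plate and higher again at T6, and *Thbs3* stays between 4.18 and 23.2 CPM.

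The order of the 4 genes in the cells changed with time. Each mRNA molecule gives 1 UMI from its 3′ end, so gene length does not enter, although capture may differ between genes. At T0 *Thbs1* held 78.2% of the UMIs of the 4 genes, *Thbs3* 17.9%, and *Thbs2* 3.21%. At T6 *Thbs1* held 46.6% and *Thbs2* 39.3%, with *Thbs1* the higher in T6-1 and T6-3 and *Thbs2* in T6-2, and *Thbs4* had its largest share of the 4 time points. At T9 *Thbs2* held 50.0% and *Thbs1* 40.6%, *Thbs4* held 8.9%, and *Thbs2* was higher than *Thbs1* in each of the 3 plates. *Thbs3* fell to a share of 0.552%.

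*Scx* had another time course in the same plates. Its mean level was 9.51 ± 2.39 CPM (SD, n = 3) before treatment and 734 ± 28.6 CPM at T3, after which it was 564 ± 77.6 CPM (T6) and 163 ± 47.4 CPM (T9). From T6 to T9 *Scx* fell by 1.55 ± 0.28 (SE) on the log2 scale (adjusted p = 0.0146), while *Thbs2* rose.

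The share of cells with at least 1 UMI was measured next. A *Thbs2* UMI was found in 7 of 1147 cells at T0 and in 942 of 1147 at T9, and the mean share over plates was 0.610% ± 0.302 (SD, n = 3), 24.9% ± 11.2, 64.8% ± 7.20, and 82.1% ± 6.61 at the 4 time points. For *Thbs1* the shares were 10.1% ± 3.28, 23.6% ± 10.0, 61.7% ± 8.89, and 68.7% ± 9.33. For *Thbs4* they were 0.174% ± 0.151, 2.78% ± 1.44, 18.0% ± 3.47, and 21.4% ± 3.41. The mean over the 3 plates of T0 minus that over the 9 plates of T3 to T9 was -56.7 percentage points for *Thbs2* and -13.9 for *Thbs4* (exact two-sided permutation test over plates, p = 0.00909 for each, the smallest value that 220 splits can give). For *Thbs1* the difference was -41.2 points (exact permutation p = 0.0182), and p was 0.0727 when T0-2 or T0-3 was left out. For *Thbs3* the shares were 6.45% at T0 and 7.54% later (exact permutation p = 0.709). These are 4 tests and the p-values are not adjusted.

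Shares depend on depth, so each cell was also thinned to 3000 UMIs, which left out 293 of the 4594 cells. The thinned shares at T9 were 66.3% ± 10.9 (SD, n = 3) for *Thbs2*, 51.6% ± 9.59 for *Thbs1*, 12.3% ± 2.52 for *Thbs4*, and 1.90% ± 0.978 for *Thbs3*. At T0 they were 0.279%, 4.30%, 0.187%, and 2.15%, in that order. The thinned difference between T0 and the later plates had an exact permutation p = 0.00909 for each of *Thbs1*, *Thbs2*, and *Thbs4*, and 0.573 for *Thbs3*.

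Cells with UMIs of all of *Tdgf1*, *Utf1*, and *Sox2*, the pluripotency genes, were taken as cells in which thrombospondin UMIs could be background. At T3 to T9 there were 26 such cells, with a median of 19179 UMIs against 7441 in the other 3421 cells. A *Thbs1* UMI was found in 15.4% of them (exact 95% interval 4.36 to 34.9) and in 51.6% of the others (49.9 to 53.3). The intervals overlapped for *Thbs2* (46.2%, 26.6 to 66.6, against 57.3%), *Thbs4* (11.5%, 2.45 to 30.2, against 14.1%), and *Thbs3* (3.85%, 0.0973 to 19.6, against 7.57%). At T0, with 78 such cells, the intervals overlapped for every gene. There *Thbs1* was found in 7.69% (2.88 to 16.0) against 10.3% of the others, and *Thbs3* in 11.5% (5.41 to 20.8) against 6.08%. The 26 cells were deeper and pooled over 3 time points between which the shares changed, so they are no matched background. The intervals count cells, which are not replicates. How much of the share of any thrombospondin was free RNA was not tested, for *Thbs1* as for the others. Free RNA would enter the summed UMIs of a plate too.

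**Figure D2:**
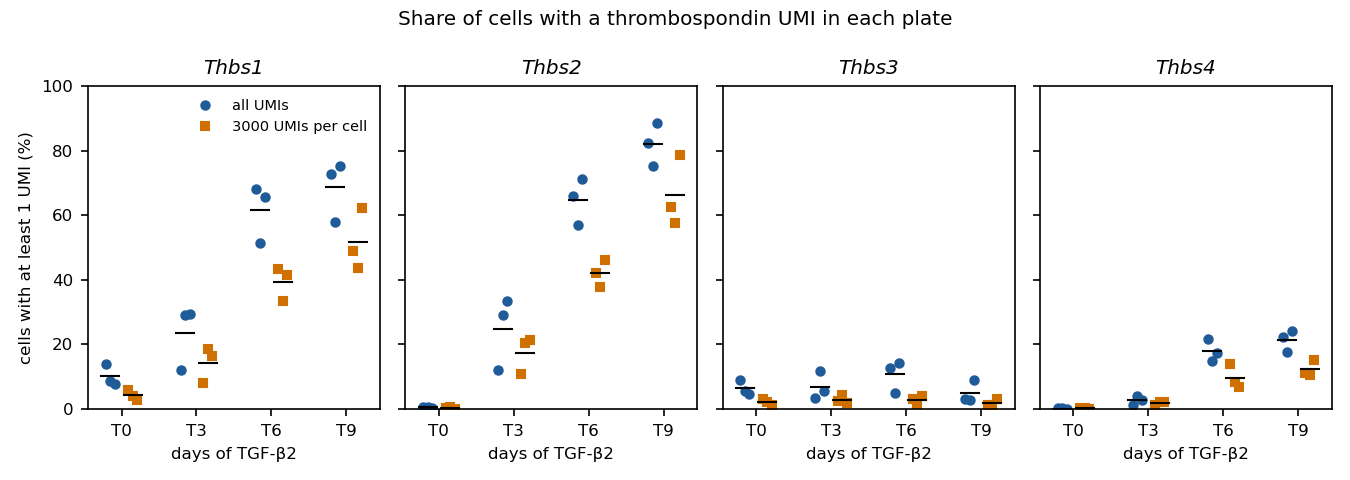
Percentage of cells with at least 1 UMI of each thrombospondin in each plate, with all UMIs (circles) and after thinning each cell to 3000 UMIs (squares), and the mean of the 3 plates (lines). Shares of *Thbs2* reach 82.1% and those of *Thbs4* 21.4% at T9 with all UMIs, and both fall with thinning but keep the order of T0, T3, T6, and T9.

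The genes also differed in how their UMIs were spread over cells. At T9 the 10% of cells with the most UMIs of a gene held 38.3% of the UMIs of *Thbs2*, 52.4% of those of *Thbs1*, and 87.1% of those of *Thbs4*. At T9 a cell with a *Thbs4* UMI held 4.6 of them on average and up to 73, and 34 cells with at least 10 each held 58.2% of all *Thbs4* UMIs. Of these 34 cells, 20 had UMIs of at least 2 chondrocyte markers, against 16.1% of the other T9 cells, and their median depth was 10642 against 7779 UMIs. Over all cells of the series *Acan* held 26 UMIs, *Col9a1* 4, and *Matn1* 2. Which of the 7 chondrocyte genes measured gave these counts was not examined, so the cells are not shown to be chondrocytes. All 34 had UMIs of at least 2 tenocyte markers, as did 99.9% of the others, and the part of depth or of chondrocyte markers in the *Thbs4* level was not tested. At T0, 6 cells with at least 10 UMIs held 47.0% of all *Thbs1* UMIs, and 1 cell held 75. Of these 6 cells, 5 had UMIs of at least 2 smooth muscle markers, against 31.6% of the other T0 cells, and 3 had UMIs of at least 2 epithelial markers, against 14.1%. Tenocyte markers went the other way, with 1 of the 6 against 65.6% of the others, and so did pluripotency markers, with 0 of 6 against 25.6%. The 6 cells were deeper, with a median of 13744 against 10156 UMIs, and none had UMIs of 2 endothelial or 2 platelet and megakaryocyte markers. The minimum of 10 UMIs was chosen after the values were seen.

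At T9 *Thbs4* was the thrombospondin that differed most between cells with a UMI of *Scx* (Scx+, 447 cells) and cells without (Scx-, 700 cells). Its level was 149 CPM in Scx+ and 38.1 CPM in Scx- cells of T9-1, 134 and 45.6 CPM in T9-2, and 325 and 83.8 CPM in T9-3. All 3 plates were higher in Scx+ cells, and the classes did not overlap. The log2 fold change within plates was 1.84 ± 0.13 (SE, adjusted p = 2.57e-07). For *Thbs2* the levels were 675 and 485, 644 and 381, and 1069 and 799 CPM, with a fold change of 0.54 ± 0.08 (adjusted p = 0.000658). For *Thbs1* they were 456 and 385, 439 and 314, and 1056 and 662 CPM, with a fold change of 0.47 ± 0.08 (adjusted p = 0.00698). All 3 of the members tested were higher in Scx+ cells, when 0.939% of the 10228 genes tested were.

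The *Thbs1* difference at T9 was lost after thinning (0.27, adjusted p = 0.311), whereas *Thbs2* and *Thbs4* kept their calls. Scx+ cells had more UMIs, with medians of 9704 against 8408, 7469 against 7366, and 7961 against 6794 in the 3 plates. *Thbs3*, with 35 UMIs in each class, was below the filter on low counts at T9. For *Thbs1* and *Thbs2* the ranges of the classes over plates overlapped, and with no plate term in the fit none of the 3 passed (adjusted p = 1.0 for *Thbs1* and *Thbs2*, and 0.172 for *Thbs4*).

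At T3, with 933 Scx+ and 218 Scx- cells, none of the 3 members tested passed in edgeR, none had an unadjusted p under 0.05, and none passed in DESeq2, when 0.426% of the 8917 genes tested passed. *Thbs1* was lower in Scx+ cells in each plate, at 57.0 against 102, 112 against 117, and 115 against 134 CPM (log2 fold change -0.35 ± 0.21 SE, adjusted p = 0.769). *Thbs2* was at 57.0 against 46.0, 83.9 against 49.3, and 93.4 against 71.9 CPM (0.48 ± 0.25, adjusted p = 0.695). *Thbs3* gave 0.77 ± 0.59 (adjusted p = 0.846). *Thbs4* was below the filter, with 73 UMIs in Scx+ and 4 in Scx- cells. The difference between the T9 and T3 effects, tested in a single edgeR fit, was 0.79 ± 0.20 for *Thbs1* (unadjusted p = 0.000642, adjusted p = 0.162). It was 0.05 ± 0.20 for *Thbs2* (unadjusted p = 0.931, adjusted p = 0.997). Neither passed, so neither was shown to differ between the time points, with 0.132% of all genes passing. For *Thbs1* the difference ranged from 0.598 to 0.945 over the alternatives and passed in none. The same test gave -0.30 ± 0.69 for *Thbs3* and 0.06 ± 1.74 for *Thbs4*, which was -4.98 without T3-2, the plate with all 4 *Thbs4* UMIs of the Scx- cells.

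Cells with a UMI of *Tnmd*, the gene of the mature tendon cell marker tenomodulin, gave a like picture for *Thbs4* at T9. In 155 Tnmd+ cells its level was 225, 219, and 634 CPM in the 3 plates, and in 992 Tnmd- cells 57.5, 54.5, and 125 CPM. The log2 fold change was 2.13 ± 0.14 (SE, adjusted p = 3.69e-07). *Thbs1* was at 546 against 387, 486 against 337, and 1192 against 776 CPM (0.56 ± 0.09, adjusted p = 0.00615). *Thbs2* did not pass (0.28 ± 0.11, adjusted p = 0.394), with T9-3 the plate in which Tnmd+ cells were lower (881 against 913 CPM), and without T9-3 it passed (0.44, adjusted p = 0.0432). *Thbs3* gave 0.22 ± 0.62 (adjusted p = 0.969). Thus 2 of 4 members were higher, when 0.733% of the 10089 genes tested were. Tnmd+ cells were also deeper, with medians of 10040 against 8743, 7734 against 7304, and 8392 against 7030 UMIs.

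When both genes were used, *Thbs4* was highest in the 102 cells with UMIs of both *Scx* and *Tnmd*, at 310, 354, and 881 CPM. It was at 84.1, 67.1, and 189 CPM in 345 cells with *Scx* alone, 50.7, 0, and 39.6 CPM in 53 cells with *Tnmd* alone, and 36.1, 49.2, and 86.5 CPM in 647 cells with neither. The cells with both genes were above every other class in each plate, and the cells with *Scx* alone were above those with neither in each plate. The cells with *Tnmd* alone were above those with neither in T9-1 and below them in T9-2 and T9-3. The 0 in T9-2 came from 16 cells and allowed up to 19.8 CPM. *Thbs2* varied less, with means from 478 ± 181 CPM (SD, n = 3) in cells with *Tnmd* alone to 870 ± 87.9 in cells with both. These levels are given with no test.

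**Figure D3:**
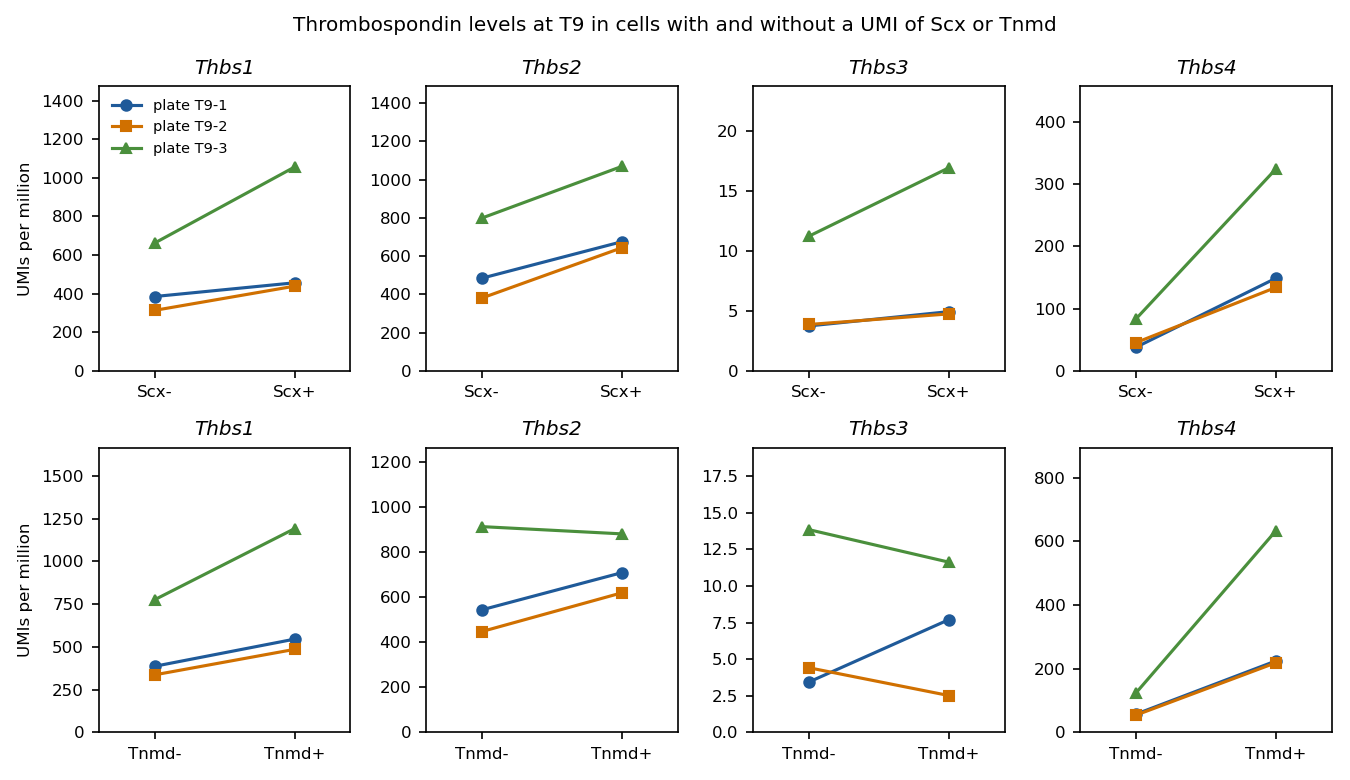
Level of each thrombospondin at T9 (CPM) in cells without and with a UMI of *Scx* (top) or *Tnmd* (bottom), with each line joining the 2 classes of 1 plate. *Thbs4* rises from 38.1-83.8 to 134-325 CPM with *Scx* and from 54.5-125 to 219-634 CPM with *Tnmd*, and plate T9-3 is highest in every panel.

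In the Achilles tendon, *Scx* itself was counted first as a check of the labels. It had 1151 and 996 reads in the Scx_Wt samples and 287 and 296 in the Scx_KO samples, and fell by 1.88 ± 0.17 (SE) on the log2 scale (adjusted p = 0.000429). In bulk tissue, fewer cells of a type and less RNA per cell cannot be told apart.

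*Comp* and *Thbs1* were lower in Scx_KO tendon. *Comp* had 5858 and 5406 reads in Scx_Wt and 3246 and 2966 in Scx_KO, and its log2 fold change was -0.86 ± 0.17 (SE, adjusted p = 0.0231). *Thbs1* had 2252 and 1987 reads in Scx_Wt and 1093 and 1330 in Scx_KO, and its log2 fold change was -0.80 ± 0.18 (adjusted p = 0.0416). Neither gene overlapped between genotypes in CPM, the scale on which overlap is judged here. The share of all genes without such overlap was not counted. With 2 samples per genotype, a lack of overlap is thus given as description only, here and for the members below. With 1 of the Scx_KO samples left out *Comp* no longer passed, though its fold change barely moved (-0.86, adjusted p = 0.0822 without Scx_KO-1, and -0.86, adjusted p = 0.0653 without Scx_KO-2), and it passed with either Scx_Wt sample left out. *Thbs1* did not pass without Scx_KO-1 (-0.60, adjusted p = 0.159) or Scx_Wt-1 (-0.69, adjusted p = 0.131).

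*Thbs4* had 17584 and 18321 reads in Scx_Wt and 11623 and 10804 in Scx_KO, with no overlap. Its log2 fold change of -0.68 ± 0.20 (SE) did not pass in edgeR (adjusted p = 0.102), but passed in DESeq2 (-0.68, adjusted p = 0.000541) and in edgeR with no filter on low counts (-0.68, adjusted p = 0.0256). *Thbs2* had 7286 and 7413 reads in Scx_Wt and 8666 and 9623 in Scx_KO, also with no overlap but in the other direction (0.32 ± 0.19, adjusted p = 0.449). *Thbs3* had 3301 and 2839 reads in Scx_Wt and 3611 and 3842 in Scx_KO (0.28 ± 0.17, adjusted p = 0.46). Its levels overlapped, at 295 and 232 CPM in Scx_Wt and 291 and 326 CPM in Scx_KO. Thus 2 of 5 members fell, when 2.07% of the 14602 genes tested fell, and no member rose, when 1.77% of all genes rose. The median log2 fold change of the 5 members was -0.68, against 0.00 for all genes.

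Levels of different genes in bulk were compared per length of exon. In Scx_Wt the order was *Thbs4* at 466 ± 16.6 reads per kilobase of exon per 1000000 reads (SD, n = 2), *Comp* at 163 ± 19.7, *Thbs2* at 89.7 ± 4.69, *Thbs3* at 54.6 ± 9.30, and *Thbs1* at 29.9 ± 4.56, and neighbours in this order did not overlap. In Scx_KO *Thbs4* was at 282 ± 4.35, *Thbs2* at 108 ± 11.9, *Comp* at 86.6 ± 2.39, *Thbs3* at 64.0 ± 5.12, and *Thbs1* at 16.6 ± 2.88. *Comp* was thus above *Thbs2* in both Scx_Wt samples and below it in both Scx_KO samples. *Thbs4* held 56.8% and 59.5% of the length-scaled reads of the family in Scx_Wt and 52.0% and 49.2% in Scx_KO.

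**Figure D4:**
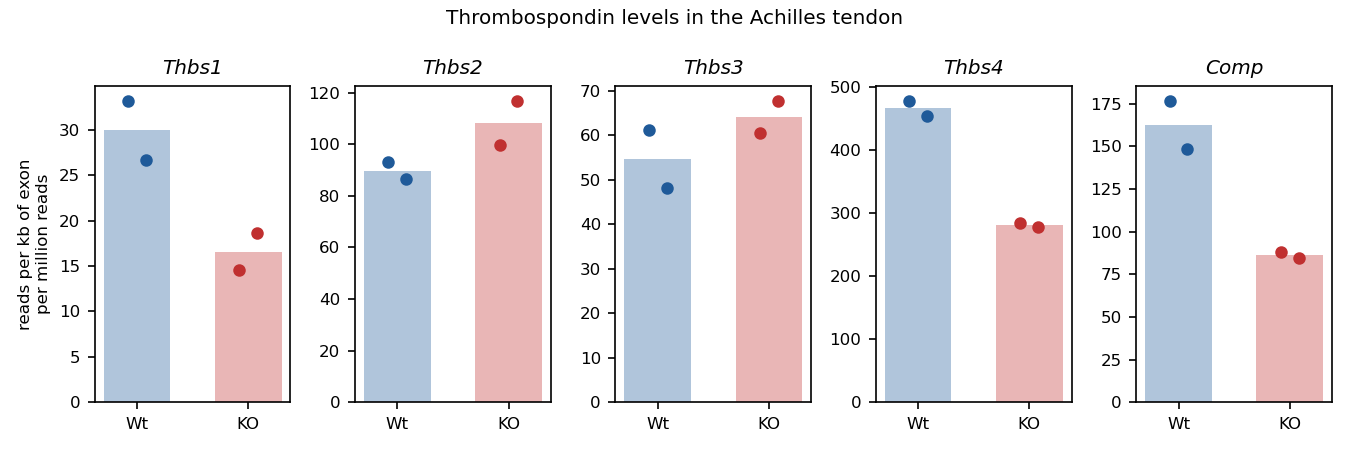
Level of each thrombospondin in the Achilles tendon (reads per kilobase of exon per 1000000 reads) in the 2 wild-type (Wt) and 2 Scx_KO (KO) samples, with points for samples and bars for their mean. *Thbs4* is the highest member in all 4 samples. *Comp*, *Thbs1*, and *Thbs4* are lower in both KO samples than in either Wt sample, and *Thbs2* is higher in both.

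Other tissue markers moved with the genotype. Over all genes tested, 2.07% were lower and 1.77% were higher in Scx_KO, and the count of each list stands beside these shares. Of a list of 9 tenocyte genes, 5 were lower in Scx_KO, namely *Tnmd*, *Mkx*, *Fmod*, *Kera*, and *Scx* itself, the gene knocked out. The sum over all 9 was 164000 and 151000 CPM in Scx_Wt and 71200 and 82200 CPM in Scx_KO, and most of it came from *Col1a1* (84700 CPM in Scx_Wt-1) and *Col1a2* (71300 CPM), which did not pass (adjusted p = 0.148 and 0.142). Of 8 chondrocyte genes, 6 were tested and 4 were lower, among them *Col2a1*, and the sum was 1560 and 1480 CPM against 355 and 373 CPM, with *Matn1* and *Snorc* at 0 in every sample. Skeletal muscle genes summed to 30900 and 56200 CPM in Scx_Wt and 72900 and 76500 CPM in Scx_KO, where 1 of 8 was higher. Adipocyte genes summed to 2440 and 1070 CPM against 668 and 343 CPM, with 2 of 5 lower. Schwann cell genes summed to 650 and 641 CPM in Scx_Wt but 5710 and 43.0 CPM in Scx_KO, and none of the 4 passed. Among endothelial genes (733 and 760 CPM against 546 and 460 CPM in sum) 1 of 6 was lower. Of 6 smooth muscle genes 1 was lower (*Acta2*), but their sum was higher in Scx_KO, at 3020 and 2540 CPM against 3650 and 3390 CPM. Most of that sum was *Des* (1880 and 1880 CPM against 3090 and 3020 CPM), which did not pass. Of 3 tested platelet and megakaryocyte genes 1 was higher (*Itga2b*), as were 2 tested epithelial genes, the epithelial sum being at most 18.9 CPM. Of the 3 red blood cell and 4 immune genes tested none passed, and of the pluripotency genes 1 was tested (*Esrrb*) and was lower. The part of these markers in the *Comp*, *Thbs1*, and *Thbs4* differences was not tested.

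**Figure D5:**
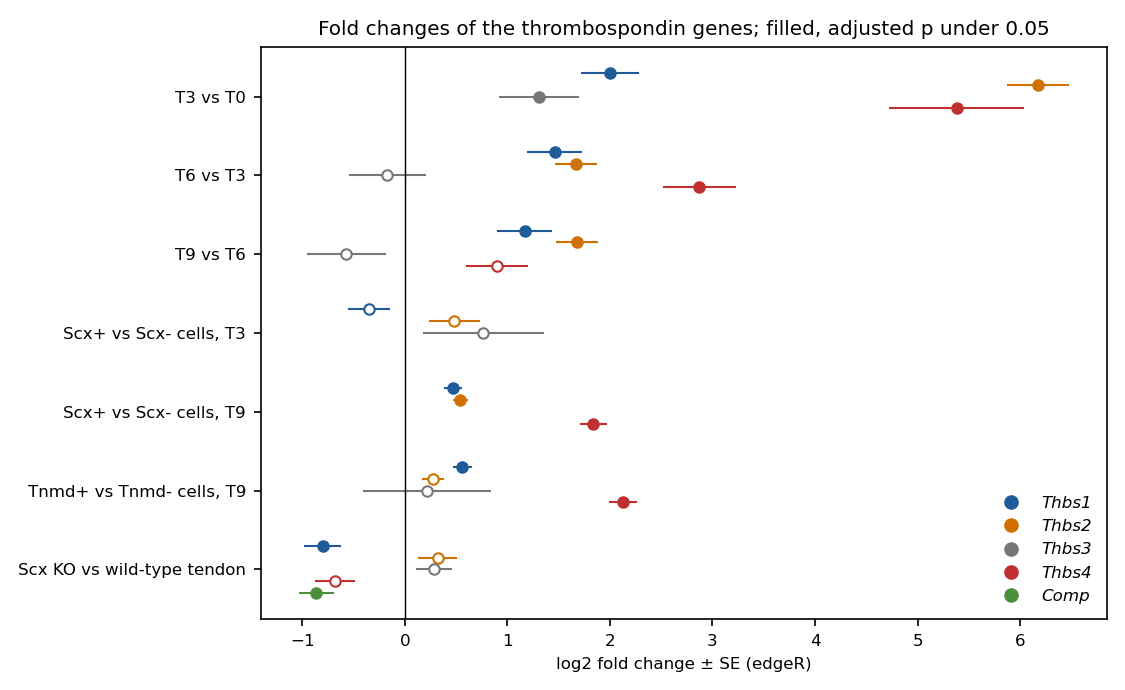
Log2 fold change of each thrombospondin (points, with SE as bars) in the steps of the time course, between classes of cells, and between Scx_KO and wild-type tendon. Filled points mark an adjusted p under 0.05. *Thbs4* is at 1.84 in Scx+ and 2.13 in Tnmd+ cells of T9, and *Comp*, *Thbs1*, and *Thbs4* lie between -0.86 and -0.68 in Scx_KO tendon.

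Of 12 receptors and cell surface partners of thrombospondins, 11 were tested in the cells. From T0 to T3, 3 rose and 4 fell, against 17.0% and 16.2% of all genes, with a median log2 fold change of 0.07 against 0.01. *Cacna2d1*, the calcium channel subunit that binds thrombospondins, rose by 1.69 ± 0.22 (SE, adjusted p = 5.82e-05), and *Cd47*, the integrin-associated protein, rose by 1.36 ± 0.21 (adjusted p = 0.000218). The integrin genes *Itga6* (-3.29 ± 0.30, adjusted p = 2.44e-06) and *Itgav* (-1.18 ± 0.19, adjusted p = 0.000295) fell. Between T0 and T9, 7 of 11 rose and 1 fell, against 23.6% and 21.6% of all genes, with a median of 1.32. *Cd47* was then at 2.06 ± 0.21 (adjusted p = 3.37e-06) and *Calr*, the calreticulin gene, at 1.37 ± 0.20 (adjusted p = 6.63e-05). In Scx_KO tendon *Cd36* was the 1 of the 12 that passed in edgeR (-1.18 ± 0.21, adjusted p = 0.0143), when 2.07% of all genes fell, and DESeq2 called 2 of the 12. The median was 0.04.

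Of 13 matrix partners, 9 were tested in the cells. From T0 to T3, 6 of them rose, against 17.0% of all genes, with a median of 2.27 against 0.01. Between T0 and T9, 7 rose, against 23.6% of all genes, and *Col2a1*, the collagen II gene of cartilage, fell by 4.07 ± 0.63 (SE, adjusted p = 0.000135, named after its value was seen), when 21.6% of all genes fell. The median was 3.64, against -0.02 for all genes. The collagen I gene *Col1a2* reached 6.37 ± 0.36 (adjusted p = 1.22e-08) and *Col12a1*, a fibril-associated collagen, 6.23 ± 0.47 (adjusted p = 1.86e-07). In Scx_KO tendon 12 were tested, of which 3 fell and 1 rose in edgeR, against 2.07% and 1.77% of all genes, with a median of -0.63. DESeq2 called 8 of the 12. *Col2a1* (-5.09 ± 0.29, adjusted p = 5.18e-05), *Acan* of cartilage aggrecan (-2.95 ± 0.22, adjusted p = 0.000137), and *Matn3*, a matrilin that binds Comp (-3.99 ± 0.43, adjusted p = 0.00115), fell, and *Col14a1* rose (1.47 ± 0.25, adjusted p = 0.0128). *Matn1* had 0 reads.

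Of 7 proteases chosen for cutting or being bound by thrombospondins, 5 were tested in the cells. *Mmp2*, the gelatinase gene, rose from T0 to T3 (2.84 ± 0.20 SE, adjusted p = 2.13e-07), and *Adamts12* fell (-3.21 ± 0.80, adjusted p = 0.00715) and then rose from T3 to T6 (3.21 ± 0.80, adjusted p = 0.0361). They were the members of the list that passed in those steps, in which 17.0% and 2.61% of all genes rose and, in the first, 16.2% fell. In Scx_KO tendon none of 6 passed in edgeR or DESeq2, with 1 at an unadjusted p under 0.05. Of the 5 genes of TGF-β ligands and latent TGF-β binding proteins, all rose from T0 to T3, when 17.0% of all genes did, with a median of 1.84, led by *Tgfb3* (3.63 ± 0.19, adjusted p = 1.68e-08) and *Ltbp3* (2.31 ± 0.34, adjusted p = 0.000176), and 3 were higher at T9 than at T0, when 23.6% of all genes were. In Scx_KO tendon none of the 5 passed in either tool, and none had an unadjusted p under 0.05.

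The genes nearest to each member were those with the smallest root mean square difference of centred log2 CPM over the 12 plates, among 13372 genes. For *Thbs2* they were *Col6a1* (0.42), *Postn* (0.44), and *Penk* (0.45), against a median of 3.41 over all genes. For *Thbs4* they were *Tnfaip8l3* (0.40), *Postn* (0.60), and *Htra3* (0.63), against 2.98. For *Thbs1* they were *Fxyd6* (0.41), *Sparc* (0.43), and *Chodl* (0.47), against 1.82. For *Thbs3*, whose own range was the smallest at 1.87 on this scale, they were *Eya4* (0.19), *2410002F23Rik* (0.24), and *Nfatc4* (0.24), against 0.81. The plates share time points and depth, so these values describe the profiles only.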

How the data were processed

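The authors aligned the CEL-Seq2 reads to GRCm38 with HISAT2 2.2.1 and deposited UMI counts (whole numbers for each gene in each well) from featureCounts and UMI-tools 1.0.1. For the bulk samples, made with a strand-marking kit, they deposited read counts per gene from HISAT2 2.0.4 and featureCounts 1.5.0. Entries of the single-cell table outside Ensembl (3, with 0.0642% of UMIs) were left out. Symbols came from GENCODE. The members, lists, and tests were chosen with earlier results of these data known. A test of the difference between T9 and T3 and scaling by library totals were added after the values were seen.

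UMIs of wells with at least 200 genes were summed per plate, or per plate and class of cells, and fitted with the quasi-likelihood test of edgeR 4.0.16 (R 4.3.3) after filterByExpr and TMM, with Benjamini-Hochberg adjustment over all genes and a threshold of 0.05. The edgeR SE is the absolute log2 fold change divided by the square root of the F statistic of the test, and is not a fitted standard error. Classes had the plate as a term. Class fits left out the gene that defines the class, and thinned classes were rebuilt from thinned UMIs. CPM are per 1000000 UMIs or reads. Shares were tested by exact permutation (scipy 1.17.1), and intervals are Clopper-Pearson and cover counting error only. The model was tested on simulated data with 200 genes changed 3-fold. It called 74.5% of them for T9 against T0 and 72.5% for Scx_KO against Scx_Wt, with 10 and 4 false calls. A gene that did not pass may therefore still differ. Replicates of a group differed by more than sampling noise (chi-square per gene 3.18 to 57.7 over 14 pairs), and p-values measure the spread between samples, which may be technical. Alternatives were DESeq2 1.42.0, size factors, no filter, a replicate block, the library split, the 6 plates compared, leaving out each sample, 1000 genes, and thinning. Named genes were the members, *Scx*, up to 4 genes per list by adjusted p, and the 3 nearest genes of each member. The tenocyte list was used without *Thbs4*.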

Additional observations from a re-analysis of the deposited data

How the results depend on the processing

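The count of members called was within 1.5 times its reported value in most alternatives. For T9 against T6 it was 1 in place of 2 with at least 1000 genes per cell, with only the 6 plates compared, and with scaling by library totals, and ranged from 1 to 2 when a plate was left out. With no plate term it was 0 for Scx+ against Scx- cells and for Tnmd+ against Tnmd- cells at T9. In Scx_KO it ranged from 0 to 2 when a sample was left out. For the share of cells with a *Thbs1* UMI, the difference between T0 and later plates ranged from -46.1 to -38.2 percentage points over single plates left out. With the replicate number as a block, the counts were 4, 3, 2, and 3 for T3 against T0, T6 against T3, T9 against T6, and T9 against T0, and 2 in Scx_KO, with no call of a member changed. Same-numbered plates did not deviate together (4 of 18 pairs correlated over 0.1, and 3 of 12 plates correlated best with their own number), so their numbers were not taken to pair them. In bulk, same-numbered samples correlated at 0.0715 and others at -0.0715, and 4 of 4 correlated best with their own number. With 2 samples per genotype the deviations mirror each other, so this check cannot tell whether the bulk samples are paired. The main bulk fit had no block. Over all genes the block moved the calls for T9 against T6 from 217 to 113 and for Scx_KO from 560 to 1108. The cause of these changes was not tested. Alternatives planned for *Comp* in the cells were not run. Depth limits *Thbs3* and, at T0, *Thbs2* and *Thbs4*, of which T0 held 84, 15, and 3 UMIs.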

Other observations

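In the thinned cells of T9, a *Thbs4* UMI was found in 14.3% of the 572 cells with a *Thbs1* UMI and in 10.0% of the rest, and in 88 of the 735 cells with a *Thbs2* UMI against 12.8% of the rest. A *Thbs2* UMI was found in 70.3% of the cells with a *Thbs1* UMI and 61.8% of the rest. These shares come from 3 plates that differ in level, and they were not tested.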
